A study of Homo sapiens with 16 samples.

Results

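The genes described here encode the DNA replication machinery and its S-phase regulators: 39 genes listed by symbol, of which 38 could be matched to an identifier in the count and TPM files, out of 57820 identifiers in all. *UHRF1* was the member without a match and its expression is not analysed here. The cells were MDA-MB-231 and MDA-MB-436, established human triple-negative breast cancer lines, both stably transfected with the 7TGP vector (eGFP behind Tcf/Lef binding sites, with puromycin selection) and sorted repeatedly by eGFP into sublines that were 7TGP-positive (POS, Wnt-positive) or 7TGP-negative (NEG, Wnt-negative). All 4 sublines carried the vector, and each was a sorted population with no unsorted control among the libraries. Each was grown either under low serum (medium with 0.5% FBS for 3 days) or in standard serum (10% FBS for 6 days). There were 2 biological replicates in each of the 8 groups, so that each estimate rests on 2 libraries per group. The replicates of a group came from the same subline, so their spread does not include that between separately sorted sublines. Per the study's methods, RNA from low serum was depleted of ribosomal RNA and RNA from standard serum was polyA-selected, on different sequencers, whereas the sample labels name the polyA kit throughout. Serum, days in culture, library preparation and sequencing therefore cannot be told apart. The methods also name a different culture medium for the sublines of each line, so that line and medium cannot be told apart either.

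Before a cell can copy its DNA, the origin recognition complex with CDC6 and CDT1 loads the MCM2-7 helicase onto origins in G1, a step called licensing, which geminin (*GMNN*) blocks later in the cycle. At the onset of S phase, MCM10, CDC45 and the GINS complex turn the loaded helicase into a moving fork, where the PCNA clamp, its RFC loader and the polymerases copy both strands, FEN1 and LIG1 join the lagging-strand fragments, and ribonucleotide reductase, thymidylate synthase and thymidine kinase supply nucleotides. Many of these genes are transcribed in late G1 and S phase under E2F factors. In RNA from whole cultures, fewer cells in S phase and less RNA per S-phase cell cannot be told apart.

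The reporter is driven by Tcf/Lef sites, and the promoter windows of the members were searched for a Tcf/Lef word, for E2F words and for a pair of others (RefSeq, GRCh38.p14, 250 bases before to 50 after the annotated start, both strands). Of the 35 members found in that table, *UHRF1* included, 19 (54.3%) held an E2F word (TTTCGCGC, TTTGGCGC or TTTCCCGC), against 3.75% of 14998 protein-coding promoters. None of the 35 held the Tcf/Lef word CTTTGAT, which 1.90% of protein-coding promoters held. CCAAT, the NF-Y word, stood in 60% of the members and in 36.6% of all, and TTTGAA, a word of mitotic gene promoters, in 2.86% of the members, 12.1% of all and 69.2% of 26 G2/M and mitosis genes. The first E2F word lay between 187 bases before and 7 bases after the start, with a median of 39 bases before it. A match is only a string of letters in this window, and its absence says nothing of a factor. The 90-base windows of 7 members on which the results below turn are shown, with capitals marking the E2F word read on either strand; where matches on both strands overlap, the capitals run on. *MCM10*, *ORC6*, *ORC1*, *RFC2* and *RRM2*, which also feature below, held no such word in the window.
MCM2, chr3:127598371-127598460, plus strand: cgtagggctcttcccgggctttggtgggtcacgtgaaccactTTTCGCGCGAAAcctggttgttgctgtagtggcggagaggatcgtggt
MCM3, chr6:52284867-52284956, minus strand: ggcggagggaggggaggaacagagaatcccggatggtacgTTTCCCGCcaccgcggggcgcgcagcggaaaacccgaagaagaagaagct
MCM6, chr2:135876546-135876635, minus strand: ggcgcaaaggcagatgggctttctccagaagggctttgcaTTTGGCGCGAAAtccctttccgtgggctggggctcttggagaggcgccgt
MCM7, chr7:100101535-100101624, minus strand: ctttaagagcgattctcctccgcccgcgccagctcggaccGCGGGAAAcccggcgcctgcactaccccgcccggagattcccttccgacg
E2F1, chr20:33686356-33686445, minus strand: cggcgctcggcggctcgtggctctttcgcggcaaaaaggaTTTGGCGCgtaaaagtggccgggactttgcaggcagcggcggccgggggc
E2F2, chr1:23531226-23531315, minus strand: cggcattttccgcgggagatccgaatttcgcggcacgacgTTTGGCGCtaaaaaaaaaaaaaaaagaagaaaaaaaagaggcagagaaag
TYMS, chr18:657574-657663, plus strand: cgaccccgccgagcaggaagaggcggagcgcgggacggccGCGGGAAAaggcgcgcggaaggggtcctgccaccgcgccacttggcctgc

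Total counts per library ran from 27918418 to 32667756 under low serum and from 31827130 to 46044073 under standard serum. A gene needed a total of 10 counts across the 8 libraries of its serum condition, which all 38 members reached; the smallest total of a member was 2833 in low serum and 3133 in standard serum, and the smallest count of a member in 1 library was 149 and 20. Libraries of 1 group were closest for MDA-MB-436 NEG in low serum, with a median SD of 0.0458 log2 CPM over genes, and farthest apart for MDA-MB-436 POS in standard serum, at 0.0998, so results for that group are also given without either of its libraries. Protein-coding genes took 94.3% to 95.7% of the TPM in standard serum but 41.0% to 69.6% in low serum, and levels between groups are therefore compared as CPM scaled with TMM factors. The mesenchymal label was partly borne out by its markers: *VIM* lay at 369 TPM or more in each library, whereas *CDH2* and *TWIST1* stayed at or under 0.66 TPM in MDA-MB-231. Epithelial genes were mixed. *CDH1* and *GRHL2* were at or under 0.15 TPM, but the keratin genes *KRT8* and *KRT18* lay at 73.9 TPM or more in each library, and *CLDN4* and *EPCAM* reached 39.4 and 12.1 TPM in MDA-MB-231. The hormone receptors *ESR1* and *PGR* were at or under 0.20 TPM, whereas *ERBB2*, which encodes HER2, lay at 16.9 to 27.8 TPM over the libraries. The immune and endothelial genes *CD3E*, *CD68* and *CDH5* were at or under 0.23 TPM. *PTPRC*, a leukocyte gene, reached 4.04 TPM in MDA-MB-231.

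The first comparison asks how the RNA levels of the replication genes differ between the lines, using the NEG sublines, whose culture medium also differed. Most of the members were lower in MDA-MB-231 than in MDA-MB-436. In low serum 28 of 38 members (73.7%) were lower and 5 higher, with a median log2 difference of -0.52, against 39.6% lower and 39.6% higher of the 16069 genes tested and a median of 0.01; on the scale of log2(TPM + 1) without centring the counts were 33 lower and 1 higher, with all genes shifted by -0.19. In standard serum 35 of 38 (92.1%) were lower and 2 higher, with a median of -1.20, against 41.4% lower and 37.3% higher of 15414 genes and a median of -0.09. A gene passed here and below when its adjusted p in edgeR's quasi-likelihood test was under 0.05, and a differentially expressed gene (DEG) also changed by 1 or more on the log2 scale. By that measure 8 members were lower DEGs under low serum (18 on uncentred TPM) and 22 under standard serum, where 21.4% and 25.4% of all genes were.

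*RRM2*, the S-phase subunit of ribonucleotide reductase, differed most. Its level in low serum was 113 and 112 CPM in the MDA-MB-231 NEG libraries and 586 and 599.6 CPM in those of MDA-MB-436 NEG, a log2 difference of -2.40 ± 0.05 (SE; adjusted p = 2.49e-34). In standard serum it was 17.8 and 19.1 CPM against 295 and 301 CPM, a difference of -4.01 ± 0.08 (adjusted p = 5.01e-18). The lines did not overlap in either serum condition, which adds little, since *RRM2* was named for the size of its difference. *E2F2*, an activating E2F, came next in both conditions. Its difference was -1.89 under low serum and -3.76 ± 0.15 under standard serum, the latter with 1.22 and 1.19 CPM in MDA-MB-231 NEG against 16.9 and 15.9 CPM in MDA-MB-436 NEG. *ORC1*, the ATPase subunit of the origin recognition complex, stood at 16.4 and 17.1 against 57.0 and 58.9 CPM in low serum (-1.79 ± 0.07) and 4.67 and 4.03 against 48.2 and 46.6 CPM in standard serum (-3.44 ± 0.11). *MCM4* was lower by 1.62 and 2.18 on the log2 scale in low and standard serum. Exceptions in both conditions were *MCM3* and *GMNN*, higher in MDA-MB-231 by 0.63 and 0.17 and by 0.64 and 0.22 on the log2 scale. The standard-serum call for *MCM3* was lost whichever NEG library was left out and that for *GMNN* without either MDA-MB-231 library or without replicate 2 of MDA-MB-436, and in standard serum neither was higher by DESeq2. *GINS4*, a GINS subunit, was higher in MDA-MB-231 in low serum (45.9 and 50.3 against 24.98 and 21.8 CPM, log2 difference 1.04 ± 0.07) and lower in standard serum (9.08 and 8.90 against 20.2 and 20.9 CPM, -1.19 ± 0.10).

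By role, all 6 helicase activation genes, all 11 clamp, loader and polymerase genes and all 4 nucleotide genes were lower in MDA-MB-231 in standard serum, with medians of -1.50, -0.97 and -1.47. Of 49 other DNA replication genes, 29 were lower and 19 (38.8%) higher in low serum, where 39.6% of all genes were higher. In standard serum 32 of the 49 were lower and 9 higher. The 32 G2/M and mitosis genes were all lower in standard serum, with a median of -2.05, led by the mitotic transcription factor *FOXM1* (-4.53 ± 0.09). In low serum 23 of the 32 were lower and 4 higher. The 20 G1 cyclins, CDKs, CDK inhibitors and pocket proteins divided into 10 higher and 8 lower in standard serum. Within a group, TPM puts the members on 1 scale per length. In MDA-MB-231 NEG in standard serum they ran from 0.735 ± 0.021 TPM for *E2F2* to 199.9 ± 9.9 TPM for *PCNA* (SD, n = 2), and in MDA-MB-436 NEG from 10.7 ± 0.13 TPM for *GINS3* to 272 ± 8.7 TPM for *PCNA*.

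**Figure D1:**
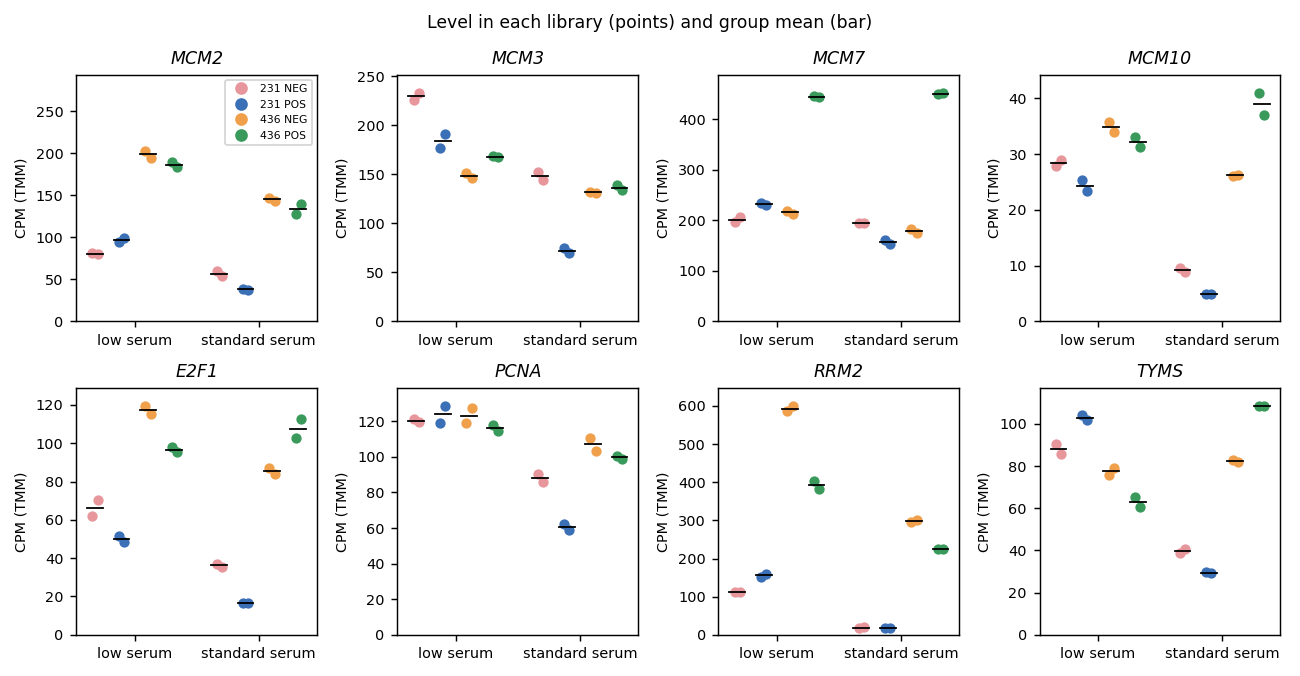
Level of 8 members in each library, as CPM scaled with TMM factors (vertical axis, from 0), for the 4 sublines in each serum condition; points are libraries and bars are means of 2. *RRM2* was far lower in MDA-MB-231 than in MDA-MB-436, *MCM7* was highest in MDA-MB-436 POS, and *MCM2*, *MCM3*, *E2F1*, *PCNA* and *TYMS* were lower in POS than in NEG of MDA-MB-231 in standard serum.

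The second comparison asks whether the Wnt-positive subline of MDA-MB-231 differs from its Wnt-negative subline. In low serum most changes were small and upward: 20 of 38 members (52.6%) were higher in POS and 4 lower, with a median log2 fold change of 0.19, against 19.0% higher and 19.9% lower of all genes and a median of -0.01. That direction depended on the scale, since on log2(TPM + 1) without centring 1 member was higher and 4 lower, where the median of all genes also shifted, by -0.13; relative to that shift the members' median was 0.12, and with libraries centred on their median gene the counts were 20 and 4 again. DEGs were 5.9% of all genes, while the largest change of a member was well under that size. It was that of *RRM2*, from 113 and 112 CPM in NEG to 152 and 159 CPM in POS (0.47 ± 0.05, adjusted p = 6.08e-10). All 4 nucleotide genes were higher, *TK1*, the salvage thymidine kinase, by 0.33 ± 0.06, *RRM1* by 0.24 and *TYMS* by 0.23, though only 1 of the 4 was on uncentred TPM. Of the 6 helicase activation genes 5 were higher (0 higher and 1 lower on uncentred TPM, by limma), *GINS3* by 0.36 ± 0.10 and *GINS4* by 0.32 ± 0.07 among them. The 4 lower members were *E2F1* (-0.40 ± 0.06), *MCM3* (-0.32), *MCM10* (-0.22) and *ORC6* (-0.21), of which *ORC6* lost its call whichever of the 4 libraries was left out and *MCM10* without replicate 2 of NEG or replicate 2 of POS, so that 2 were lower without either of these. DESeq2 called 16 members higher and 2 lower.

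In standard serum the direction was the opposite. Of the 38 members 20 (52.6%) were lower in POS, against 16.2% of all genes, and edgeR called 0 higher, against 16.8% of all genes, with 1 higher at an unadjusted p under 0.05 and 0 higher by DESeq2; the median was -0.25 where that of all genes was 0. Licensing genes carried much of this, with 9 of 11 lower and a median of -0.30, and so did the pair of E2F genes. The clamp, loader and polymerase group had 4 of 11 lower, the strand maturation group 3 of 4, and the nucleotide group 1 of 4. DEGs were 7.69% of all genes and 2 members, *E2F1* and *MCM3*. *MCM3* lay at the edge of that size, at -0.9996 without replicate 1 of NEG and -0.99 without replicate 2 of POS or on uncentred TPM, which left 1 DEG, and *E2F2* was a DEG as well without replicate 1 of POS (-1.01). *E2F1*, the founding E2F activator, fell from 37.1 and 35.5 CPM in NEG to 16.5 and 16.5 CPM in POS (-1.14 ± 0.09, adjusted p = 8.54e-09). *MCM3* was at 152 and 144 CPM in NEG and at 74.7 and 69.4 CPM in POS (-1.04 ± 0.07, adjusted p = 4.49e-09). For both genes the POS libraries lay below the NEG libraries, which adds little, since these genes were named for the size of their changes. *MCM10*, which helps to activate the helicase, went from 9.52 and 8.80 CPM to 4.85 and 4.86 CPM (-0.92 ± 0.11, adjusted p = 5.45e-06). *E2F2* was at the low end of detection, with 1.22 and 1.19 CPM in NEG and 0.684 and 0.596 CPM in POS (-0.92 ± 0.23, adjusted p = 0.00482), and *ORC1* was at 4.67 and 4.03 CPM and at 3.13 and 2.53 CPM (-0.63 ± 0.14, adjusted p = 0.00182). Their errors were the wider ones here, and *E2F2* lost its call without replicate 2 of POS (adjusted p = 0.0636).

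The MCM2-7 helicase is a ring of 6 different subunits, and all of its genes were lower in MDA-MB-231 POS in standard serum. *MCM2* went from 59.8 and 54.1 CPM to 38.5 and 37.6 CPM (-0.58 ± 0.08), *MCM5* from 47.5 and 43.7 to 32.9 and 30.3 CPM (-0.53 ± 0.10), and *MCM7* from 194 and 195 to 162 and 154 CPM (-0.30 ± 0.07). *MCM4* (55.5 and 56.7 to 45.5 and 46.5 CPM) and *MCM6* (58.8 and 54.5 to 49.9 and 44.9 CPM) changed by -0.29 and -0.26 and lost their calls without replicate 2 of NEG for *MCM4* (adjusted p = 0.0555) and without replicate 1 of NEG or replicate 2 of POS for *MCM6* (up to 0.213). The subunit genes thus fell by unequal amounts, *MCM3* most. In low serum the same ring was divided: *MCM2* (80.9 and 80.4 to 94.7 and 98.7 CPM), *MCM4* (115 and 118 to 133 and 139 CPM), *MCM6* (41.5 and 43.0 to 47.9 and 49.0 CPM) and *MCM7* (196 and 207 to 234 and 231 CPM) were higher by 0.20 to 0.26 on the log2 scale, *MCM6* not without replicate 1 of NEG. On uncentred TPM *MCM6* turned to -0.00401. *MCM3* was lower there (225 and 233 to 177 and 191 CPM), and *MCM5* did not pass (84.7 and 85.7 against 82.8 and 80.6 CPM, -0.06). *PCNA*, the sliding clamp, also did not pass in low serum (121 and 119 against 119 and 129 CPM, 0.04) but was lower in standard serum (90.4 and 85.8 to 62.5 and 59.0 CPM, -0.54 ± 0.08).

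**Figure D2:**
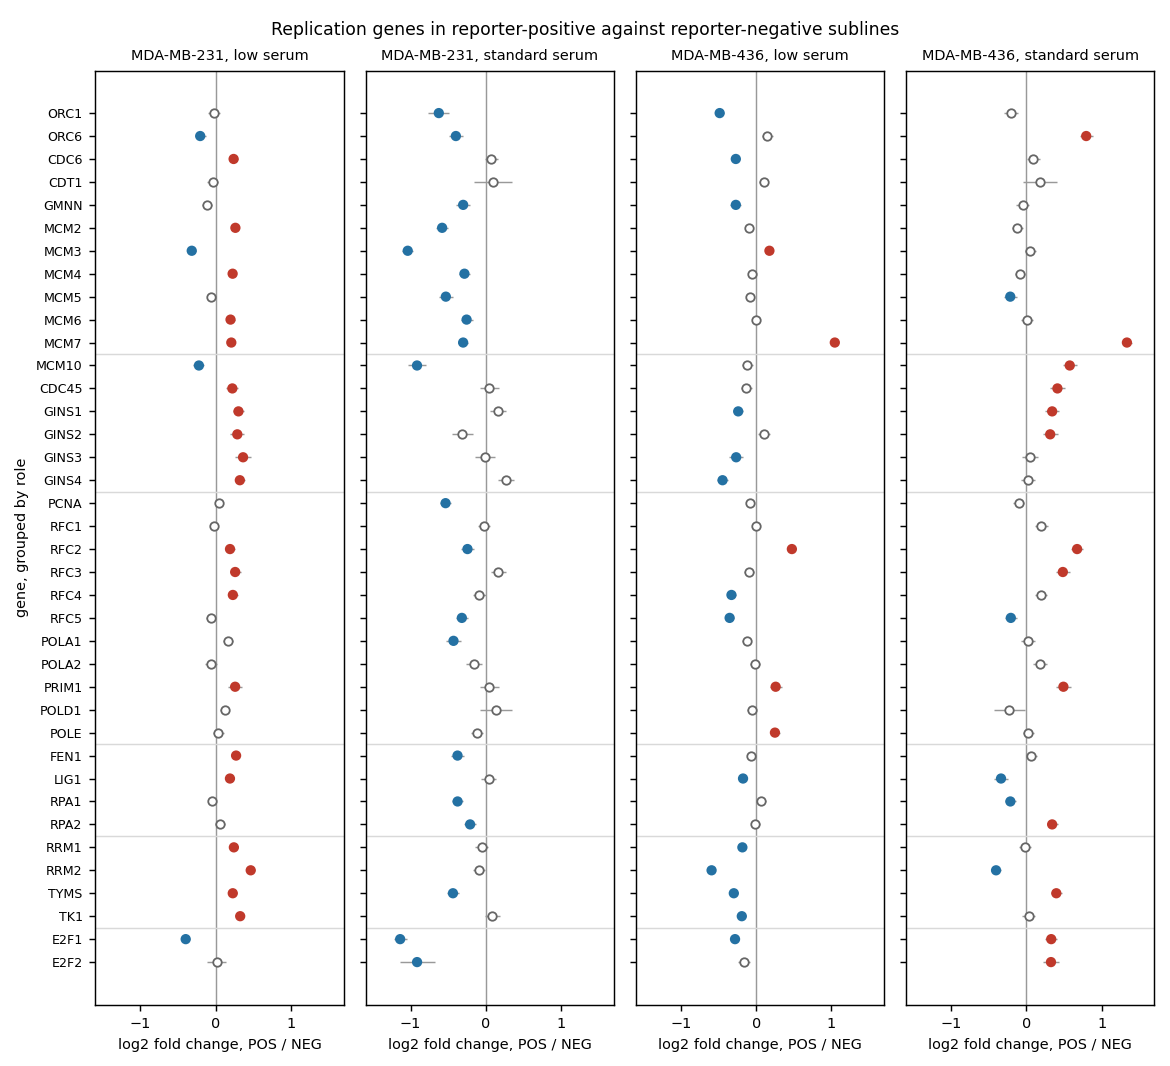
Log2 fold change (POS over NEG, horizontal axis) of the 38 members, one row per gene in blocks by role, for each line and serum condition; bars are standard errors, filled points passed at an adjusted p under 0.05 (red higher, blue lower) and open points did not. In MDA-MB-231 the filled points lie mostly right of 0 in low serum (20 higher, 4 lower; 1 and 4 on uncentred TPM) and all left of 0 in standard serum, and *MCM7* stands apart on the right in MDA-MB-436.

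Whether the POS-NEG change itself differed between the serum conditions was tested in 1 edgeR fit of all 16 libraries with 15286 genes, an analysis added after the changes in each condition had been seen. In MDA-MB-231 the change was lower in standard than in low serum for 20 of 38 members (52.6%), against 5.95% of all genes, and higher for 0, against 3.7%, with 0 higher at an unadjusted p under 0.05; the median was -0.34. With DESeq2 size factors in edgeR the counts were 22 lower and 0 higher. *MCM2* had the largest evidence (-0.87 ± 0.09, adjusted p = 2.41e-06), followed by *MCM3* (-0.74 ± 0.09), *TYMS*, which makes dTMP (-0.69 ± 0.09), *E2F1* (-0.76 ± 0.11) and *FEN1*, the flap endonuclease (-0.67 ± 0.09). *TYMS* illustrates the turn, with NEG at 90.3 and 85.6 and POS at 104 and 102 CPM in low serum, and NEG at 38.8 and 40.9 and POS at 29.7 and 29.1 CPM in standard serum. Likewise *FEN1* went from 88.6 and 95.1 to 111 and 110 CPM in low serum and from 47.6 and 47.3 to 38.4 and 34.7 CPM in standard serum. There were 7 members higher in low serum and lower in standard serum, each past the test: *MCM2*, *MCM4*, *MCM6*, *MCM7*, *RFC2*, *FEN1* and *TYMS*. The share of all genes with this pattern was not counted. It also depends on the scale, since on uncentred TPM 1 of the 38 members was higher in low serum. *E2F1*, *MCM3*, *MCM10* and *ORC6* were lower in both. *RFC2*, a clamp loader subunit, lost its call in both serum conditions without either NEG library or without replicate 2 of POS.

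Other lists of cell cycle genes were measured beside the members in MDA-MB-231. Of 32 G2/M and mitosis genes, 1 differed between the serum conditions, *ASPM*, a spindle pole gene, by 0.46 ± 0.14, and the median difference was 0.00. In the separate comparisons 20 were higher in POS and 4 lower in low serum, and 15 were higher and 3 lower in standard serum, with medians of 0.21 and 0.23; on uncentred TPM 1 was higher and 4 were lower in low serum. *HMMR*, a spindle-associated gene, was higher in POS in both, by 0.68 ± 0.09 and 0.76 ± 0.13, and *CCNB2*, a mitotic cyclin, lower in both, by -0.26 ± 0.07 and -0.49 ± 0.09. Of 49 other DNA replication genes, 5 changed to a lower value with serum and the median was -0.15. In low serum 18 were higher and 6 lower in POS (0 and 8 on uncentred TPM, by limma), and in standard serum 6 were higher and 7 lower. *E2F8*, a repressor E2F, was lower in POS in both (-0.48 ± 0.10 and -1.18 ± 0.21). Of the 20 genes of the G1 list, 3 were higher and 3 lower in POS in low serum, and 3 higher and 8 lower in standard serum. Among them *CCND2*, cyclin D2, was higher in POS by 1.84 ± 0.06 and 3.85 ± 0.10, and *CCND1*, cyclin D1, lower by 0.49 and 0.72 on the log2 scale. The CDK inhibitor *CDKN1A* was lower in POS by 0.55 and 0.79 on the log2 scale.

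**Figure D3:**
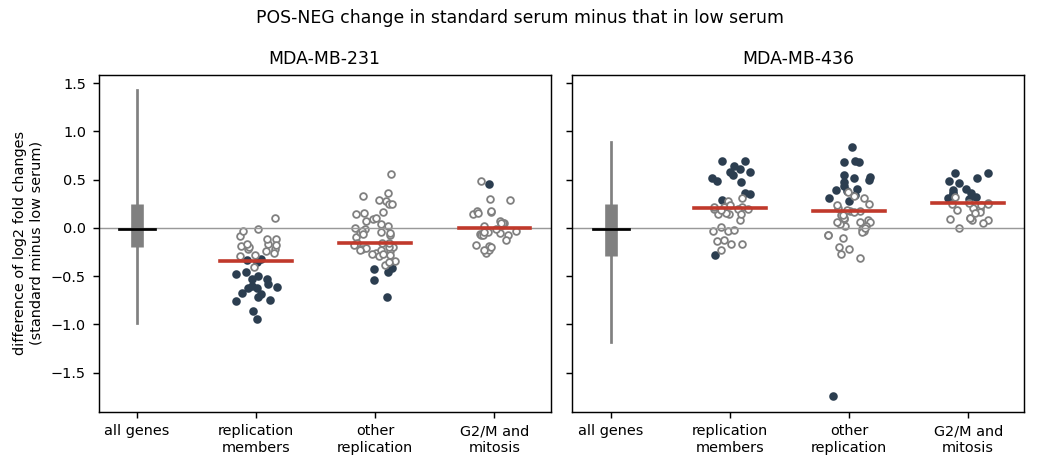
Difference of the POS-NEG log2 fold change between serum conditions (standard minus low, vertical axis) for each gene of 3 lists; filled points passed at an adjusted p under 0.05, red lines are list medians, and the grey bar shows all genes (thick, quartiles; thin, 5th to 95th percentile; black, median). In MDA-MB-231 the members centre on -0.34 and the G2/M genes on 0.00, whereas in MDA-MB-436 the members centre on 0.21 and the G2/M genes on 0.26.

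The same comparison in MDA-MB-436 gave another picture. In low serum 14 of 38 members (36.8%) were lower in POS and 5 higher, with a median of -0.09, against 25.3% lower and 26.6% higher of all genes and a median of 0.01; on uncentred log2(TPM + 1) the counts were 25 lower and 1 higher, with all genes shifted by -0.15, and on centred values 16 and 5. Without replicate 2 of NEG or replicate 1 of POS, 3 were higher. DEGs were 10.5% of all genes and 1 member, *MCM7*, which fell short of that size without replicate 1 of POS (0.99) and on uncentred and centred TPM (0.79 and 0.999). *RRM2* fell from 586 and 599.6 CPM to 405 and 381 CPM (-0.59 ± 0.05, adjusted p = 9.07e-14). The other 3 nucleotide genes were lower too, *TYMS* by 0.30, *TK1* by 0.19 and *RRM1* by 0.18 on the log2 scale. The *TK1* call was lost without replicate 2 of NEG or replicate 2 of POS. *ORC1* was at 57.0 and 58.9 CPM in NEG and 42.8 and 39.9 CPM in POS (-0.49 ± 0.06), and *GINS4* at 24.98 and 21.8 and at 16.9 and 17.5 CPM (-0.45 ± 0.08). NEG and POS did not overlap for *RRM2*, *ORC1* or *GINS4*, which adds little, since these were named for the size of their changes. Of the 32 mitotic genes 29 were lower, with a median of -0.47. *PTTG1*, securin, led them at -1.21 ± 0.06.

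In standard serum 13 of 38 members (34.2%) were higher in MDA-MB-436 POS, against 26.1% of all genes, and 5 were lower, against 23.4%, with a median of 0.06; on uncentred TPM 16 were higher and 1 lower. The higher share was thus not far above that of all genes. DEGs were 12.5% of all genes and again 1 member, *MCM7*. *ORC6*, a licensing gene, went from 25.1 and 25.1 CPM to 43.2 and 43.7 CPM (0.79 ± 0.08, adjusted p = 4.09e-07). *MCM10* went from 26.1 and 26.3 to 41.0 and 37.1 CPM (0.58 ± 0.09), and *PRIM1*, the primase subunit, from 20.6 and 20.3 to 30.2 and 27.3 CPM (0.49 ± 0.10). All POS values exceeded the NEG values of the same gene here, which adds little, since these genes were named for the size of their changes. *E2F1* was at 87.3 and 84.1 CPM in NEG and at 103 and 113 CPM in POS (0.33 ± 0.07), and *RRM2* stayed lower in POS, at 226 and 225 against 295 and 301 CPM (-0.40 ± 0.07). The counts were 14 higher and 4 lower without replicate 1 of MDA-MB-436 POS and 14 higher and 7 lower without its replicate 2. Without replicate 1 or 2 of NEG 2 or 1 were lower. Of the mitotic genes 12 were lower and 1 higher (9 and 5 on uncentred TPM), and 17 of 49 other replication genes were higher and 6 lower.

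Between the serum conditions the MDA-MB-436 change was higher in standard serum for 13 of 38 members (34.2%), against 11.7% of all genes, and lower for 1, *RPA1*, against 11.1%, with a median of 0.21. The *RPA1* call was lost without either NEG library of either serum condition or without replicate 1 of POS in low serum. The counts were 17 higher and 1 lower without replicate 1 of POS in standard serum and 14 and 4 without its replicate 2. With DESeq2 size factors they were 14 and 1. *TYMS* had the smallest p (0.69 ± 0.09, adjusted p = 4.3e-06), with 75.8 and 79.1 CPM in NEG and 65.3 and 60.6 CPM in POS in low serum, and 82.9 and 81.8 against 108 and 108 CPM in standard serum. *ORC6*, *MCM10*, *E2F1* and *GINS1*, a GINS subunit, followed with differences of 0.65, 0.69, 0.61 and 0.58. Of the 32 mitotic genes 14 were higher in the same sense, with a median of 0.26. Divided by the E2F word, of 18 tested members with it, 10 were lowered in standard relative to low serum in MDA-MB-231 (median -0.50) and 7 raised in MDA-MB-436 (0.21), and of 16 without it 8 (median -0.30) and 4 (0.21).

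The remaining members are given by role. Of the 6 helicase activation genes, 3 (50%) were lower in MDA-MB-436 POS in low serum, against 25.3% of all genes. The *GINS3* call was lost without replicate 2 of NEG or replicate 1 of POS, and that of *GINS1* without replicate 2 of POS. In standard serum 4 (66.7%) were higher, against 26.1% of all genes, with *GINS2* losing its call without either NEG library or without replicate 2 of POS. *CDC45*, which joins the helicase, was at 24.8 and 22.4 CPM in NEG and at 30.9 and 31.8 CPM in POS there (0.41 ± 0.10), and *GINS1* at 24.1 and 23.5 and at 31.2 and 29.1 CPM (0.34 ± 0.09), but both calls were lost without replicate 2 of NEG. In MDA-MB-231 POS in low serum *GINS1* was higher (25.7 and 26.0 to 31.9 and 31.9 CPM, 0.30 ± 0.07), and in standard serum it stood at 8.42 and 8.66 in NEG and 9.41 and 9.66 CPM in POS, which did not pass (0.16 ± 0.11).

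Among the clamp loader genes, *RFC4* was higher in POS of MDA-MB-231 in low serum (32.6 and 32.6 to 37.3 and 39.1 CPM, 0.23 ± 0.07, not without replicate 2 of POS) and lower in POS of MDA-MB-436 (45.6 and 47.3 to 38.9 and 35.0 CPM, -0.33 ± 0.07). *RFC5* was lower in MDA-MB-436 POS in both conditions (-0.35 and -0.21), the call in standard serum lost without either NEG library. *RFC3* was higher in MDA-MB-436 POS in standard serum (26.7 and 23.7 to 36.3 and 34.2 CPM, 0.48 ± 0.09). The loader subunits therefore did not change together. *POLA1*, the catalytic subunit of the polymerase that starts each strand, was lower in MDA-MB-231 POS in standard serum (17.1 and 15.4 to 12.2 and 12.0 CPM, -0.43 ± 0.10), a call lost without replicate 1 of NEG, while its partner *POLA2* did not pass in either line or serum condition.

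*LIG1*, the DNA ligase, was lower in MDA-MB-436 POS in both conditions (70.8 and 66.2 to 61.6 and 59.8 CPM, and 53.3 and 55.2 to 40.6 and 45.3 CPM), by 0.17 and 0.34 on the log2 scale, the first call lost without replicate 1 of NEG and the second without replicate 2 of NEG. *RPA1* and *RPA2* encode subunits of the single-strand binding complex and parted in MDA-MB-436 in standard serum. *RPA1* was lower (154 and 153 to 133 and 131 CPM, -0.21 ± 0.07), not without either NEG library, and *RPA2* higher (113 and 106 to 141 and 137 CPM, 0.34 ± 0.07). *CDT1* and *POLD1* had the widest spread, with 35.3 against 56.4 CPM and 37.4 against 57.1 CPM in the MDA-MB-436 POS replicates in standard serum, and neither passed in any of the 4 POS-NEG comparisons. *RFC1*, the large loader subunit, did not pass in them either.

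*MCM7* and *RFC2* were higher in MDA-MB-436 POS in both serum conditions. *MCM7* lies on chromosome 7 (99689856 to 99699563, minus strand, GRCh37) and carried 218 and 213 CPM in NEG and 446 and 444 CPM in POS in low serum (1.04 ± 0.05, adjusted p = 1.54e-21), and 182 and 175 against 449 and 453 CPM in standard serum (1.33 ± 0.07, adjusted p = 3.43e-11). *RFC2*, on the same chromosome (73645829 to 73668788, minus strand), carried 43.7 and 44.4 against 61.1 and 61.3 CPM (0.47 ± 0.06) and 54.0 and 52.5 against 81.1 and 88.7 CPM (0.67 ± 0.08). The genes around them were higher as well. The median log2 fold change of the 50 nearest expressed genes was 0.85 and 0.87 around *MCM7* and 0.73 and 0.66 around *RFC2*, in low and standard serum. Less that regional median, *MCM7* stood at 0.20 and 0.46 and *RFC2* at -0.25 and 0.01. The other 5 genes of the MCM ring did not follow *MCM7* in this line: *MCM2*, *MCM4* and *MCM6* did not pass in either serum condition (log2 fold changes of -0.12 to 0.01), *MCM3* was higher in low serum (0.18; -0.07 on uncentred TPM), a call lost without replicate 2 of NEG or replicate 1 of POS, and did not pass in standard serum, and *MCM5* passed as lower in standard serum (-0.22), a call lost without either NEG library or replicate 1 of POS. As TPM, *MCM7* stood at 412 ± 5.1 in POS in standard serum, above each other member, and *MCM4* at 140.2 ± 4.7 (SD, n = 2).

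In MDA-MB-231 the members that were lower in both serum conditions also lay among lower neighbours. The regional median in low and standard serum was -0.44 and -0.46 around *MCM3* (chromosome 6, 52128812 to 52149679), -0.36 and -0.49 around *MCM10* (chromosome 10, 13203558 to 13253110), -0.29 and -0.40 around *E2F1* (chromosome 20, 32263283 to 32274191) and -0.20 and -0.11 around *ORC6* (chromosome 16, 46723555 to 46732306). Less the regional median, *MCM3* turned to 0.12 in low serum and stayed at -0.58 in standard serum, *MCM10* was at 0.14 and -0.43, and *E2F1* at -0.11 and -0.74. *E2F2*, *MCM2* and *PCNA* had regional medians near 0 in standard serum (-0.04, -0.06 and 0.04) beside changes of -0.92, -0.58 and -0.54. Over the 38 members the median less the region was 0.15 in low and -0.15 in standard serum in MDA-MB-231, and -0.10 and 0.04 in MDA-MB-436. What the change of neighbouring genes contributes was not tested, and DNA copy number was not measured here. Reads of *MCM7* may also be shared with *AP4M1* on the opposite strand and reads of *RRM2* and *PCNA* with processed copies, since the strand setting of the counts is not given.

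**Figure D4:**
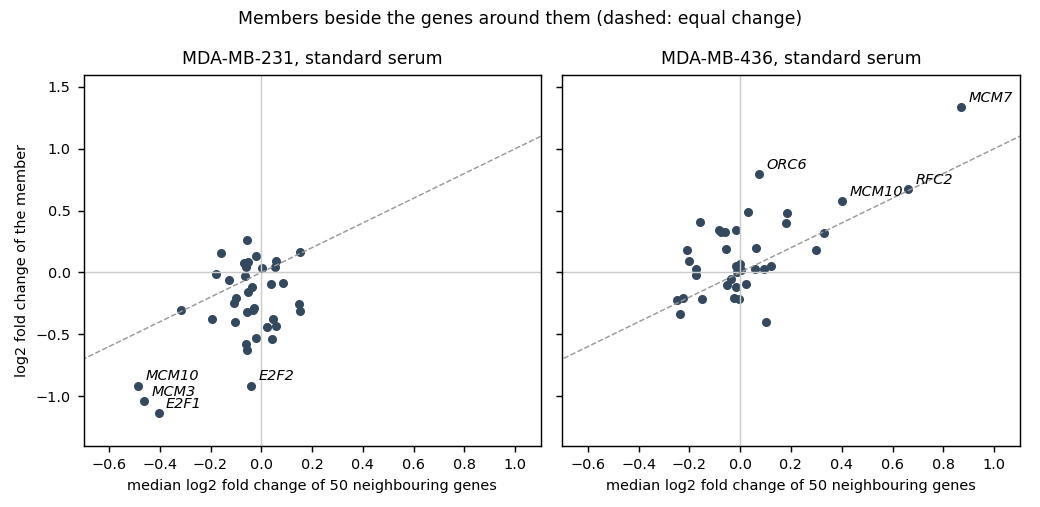
Log2 fold change (POS over NEG) of each member in standard serum (vertical axis) against the median log2 fold change of its 50 nearest expressed genes (horizontal axis), 1 point per member, with equal change on the dashed line. *MCM7* and *RFC2* lie at regional medians of 0.87 and 0.66 in MDA-MB-436, and *MCM3*, *MCM10* and *E2F1* at -0.46, -0.49 and -0.40 in MDA-MB-231.

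Finally, the POS-NEG changes of the lines were compared within each serum condition as an interaction. In low serum 18 of 38 members (47.4%) changed more positively in MDA-MB-231 than in MDA-MB-436, against 21.1% of all genes, and 4 changed more negatively, against 24.6%, with a median difference of 0.19. *RRM2* had the largest difference (1.06 ± 0.07, adjusted p = 3.62e-16), being higher in POS of MDA-MB-231 and lower in POS of MDA-MB-436. *GINS4* (0.77 ± 0.10) and *TYMS* (0.52 ± 0.08) behaved in the same way, and *MCM7* (-0.84 ± 0.07) and *MCM3* (-0.49 ± 0.07) differed in the other direction. In standard serum the change in MDA-MB-231 was below that in MDA-MB-436 for 15 of 38 members (39.5%), against 22.4% of all genes, and above it for 2, *LIG1* and *RRM2*, against 18.8%, with a median of -0.32. This last count was 0 or 1 in 7 of the 8 fits that left out a library, the exception being replicate 2 of MDA-MB-436 POS. Without replicate 1 or 2 of MDA-MB-436 POS, 17 or 21 were below. *MCM7* (-1.64 ± 0.10), *MCM10* (-1.49 ± 0.15), *E2F1* (-1.47 ± 0.11), *ORC6* (-1.19 ± 0.13) and *MCM3* (-1.09 ± 0.10) differed most clearly. *MCM7*, *MCM10*, *E2F1* and *ORC6* were lower in POS of MDA-MB-231 and higher in POS of MDA-MB-436. *MCM3* was lower in MDA-MB-231 and did not pass in MDA-MB-436 (0.05). Regional medians in MDA-MB-231 and MDA-MB-436 in standard serum were -0.03 and 0.87 around *MCM7* and -0.49 and 0.40 around *MCM10*. They were -0.40 and -0.08 around *E2F1*, -0.11 and 0.08 around *ORC6* and -0.46 and 0.12 around *MCM3*. In low serum they were 0.01 and 0.85 around *MCM7*, -0.44 and 0.02 around *MCM3* and 0.03 and 0.08 around *RRM2*. What neighbouring genes contribute to these differences was not tested. The mitotic genes had 16 of 32 above and 1 below in standard serum, with a median of 0.36, and 30 above in low serum, with a median of 0.63, led by *HMMR* (1.65 ± 0.16 and 1.63 ± 0.12).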

How the data were processed

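Bulk RNA-Seq covered 16 libraries, 2 biological replicates in each of 8 groups. The count values are read pairs per gene, deposited by the authors without normalisation: per the paper's methods, reads were aligned to hg19 with STAR (2.6.1a per the submitters' notes) and counted on Gencode v19 genes. The TPM values were also deposited by the authors, and how they were computed is not given in the sources used here. Symbols and GRCh37 positions came from Gencode v44 lifted to GRCh37, and 38 of 39 members matched.

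The test was edgeR's quasi-likelihood test (robust, TMM factors, 4 groups in a fit) on the protein-coding genes whose 8 libraries of a serum condition held 10 or more counts together, with Benjamini-Hochberg adjustment over all genes tested. The interaction and the NEG comparison used the same fits. A standard error is the absolute log2 fold change over the square root of F. Regional medians used the 50 nearest genes averaging 1 CPM or more. Alternatives were DESeq2, its size factors, other filters, all biotypes, only the groups compared, a replicate block, limma-trend on log2(TPM + 1) and leaving out each library, where a lone library is assumed to vary like the other groups. Added after the data were seen were centred TPM and the fit of the difference between serum conditions.

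Members, gene lists and promoter words were chosen with earlier results of these data known. Per-library values were given for the MCM2-7 genes, *E2F1*, members that passed and had the 5 largest changes of a POS-NEG comparison or the 5 smallest adjusted p of an interaction, and a few others chosen after their values were seen (*PCNA*, *FEN1*). From the other lists, genes among the 3 largest changes in each direction were named. There were 8 members that overlap a protein-coding gene on the opposite strand, *MCM7*, *TYMS* and *PRIM1* among them, and 8 with named processed copies, *PCNA* and *RRM2* among them; the strand setting of the counts is not given, so these counts are less certain. Fits ran in R 4.3.3 with limma 3.58.1, DESeq2 1.42.0 and edgeR 4.0.16, and tables and plots were made in Python 3.11.15 with matplotlib 3.10.9, pandas 2.3.3 and numpy 2.4.6.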

Additional observations from a re-analysis of the deposited data

Results flagged for a closer look

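By a test of the difference itself, the POS-NEG change in low serum was higher in MDA-MB-231 than in MDA-MB-436 for 18 members and lower for 4. Of all genes 21.1% were higher and 24.6% lower. In standard serum 2 members were higher and 15 lower, against 18.8% and 22.4% of all genes. In low serum the log2 differences with the smallest adjusted p were those of *RRM2* (1.06), *MCM7* (-0.84), *GINS4* (0.77), *MCM3* (-0.49) and *TYMS* (0.52). In standard serum they were those of *MCM7* (-1.64), *E2F1* (-1.47), *MCM3* (-1.09), *MCM10* (-1.49) and *ORC6* (-1.19).

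The POS-NEG change also differed between serum conditions, in a test added after the data were seen. In MDA-MB-231 edgeR called 20 members lower and 0 higher in standard than in low serum, against 5.95% and 3.7% of all genes. At an unadjusted p under 0.05 the counts of members were 24 and 0, and with DESeq2 size factors 22 and 0. The log2 differences were -0.87 for *MCM2*, -0.74 for *MCM3*, -0.69 for *TYMS*, -0.76 for *E2F1* and -0.67 for *FEN1*. In MDA-MB-436 edgeR called 13 members higher and 1 lower, against 11.7% and 11.1% of all genes. The differences were 0.69 for *TYMS*, 0.65 for *ORC6*, 0.69 for *MCM10*, 0.61 for *E2F1* and 0.58 for *GINS1*. Serum, days in culture, library preparation and sequencing cannot be told apart in these differences.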

How the results depend on the processing

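Over the 256 counts of members obtained under alternatives, 213 stayed within 1.5 times the count reported and 43 did not. For single members, 1250 of 1359 values were classed as the same and 20 as changed in sign. The same meant that direction and side of the threshold were kept. Values less the regional median were classed otherwise. They were the same if they moved by less than the largest replicate SD of the members' mean log2 CPM. They were changed in sign only where the member had passed. On log2(TPM + 1) without centring, the members higher numbered 1 for MDA-MB-231 and 1 for MDA-MB-436 in low serum, 11 for the line difference in change and 1 for the NEG comparison, and in standard serum 1, 16, 1 and 0; the members lower that moved were 25 for MDA-MB-436 and 2 for the line difference in low serum and 1 for MDA-MB-436 in standard serum. Protein-coding genes took unequal shares of that scale between low-serum groups, and on centred values the counts that moved were 1 higher for the line difference and 0 higher for the NEG comparison in standard serum. DESeq2 called 2 lower in MDA-MB-231 and 2 lower for the line difference in low serum, and 1 higher for the line difference and 0 higher for the NEG comparison in standard serum. With all biotypes 2 were lower in MDA-MB-231 in low serum and 1 higher for the line difference in standard serum. With only the groups compared, 2 were lower in MDA-MB-231 in low serum, and 1 higher in MDA-MB-231 and 3 lower in MDA-MB-436 in standard serum. The cause was not tested.

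Leaving out each library in turn gave ranges in low serum of 15 to 19 higher and 2 to 3 lower in MDA-MB-231, 3 to 5 and 12 to 17 in MDA-MB-436, 16 to 20 and 3 to 4 for the line difference in change, and 4 to 5 and 27 to 28 for the NEG comparison. In standard serum they were 0 higher and 14 to 19 lower, 9 to 14 and 1 to 7, 0 to 3 and 12 to 21, and 0 to 1 and 34 to 35, in the same order. For the difference between serum conditions they were 0 higher and 14 to 23 lower in MDA-MB-231 and 13 to 17 and 0 to 4 in MDA-MB-436.

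Less the regional median, 29 of the 152 POS-NEG changes of members turned sign, 6 of them among the 81 that had passed. In low serum these 6 included *MCM3* (0.118) and *MCM10* (0.142) in MDA-MB-231 and *RFC2* in MDA-MB-436 (-0.253), and in standard serum *GMNN* in MDA-MB-231 (0.0132) and *GINS2* (-0.0130) and *RFC5* (0.0177) in MDA-MB-436. For members given with their values, those that turned on uncentred TPM were *MCM6* in MDA-MB-231 (-0.00401) and *MCM3* in MDA-MB-436 (-0.0708) in low serum, and *MCM4* in MDA-MB-436 (0.00623) and *MCM7* between the NEG sublines (-0.0428) in standard serum. *MCM6* in MDA-MB-436 turned in low serum without replicate 2 of NEG (0.0111) or of POS (0.0225), with a range of -0.111 to 0.0225 over the libraries left out, and in standard serum by DESeq2 (-0.0187), with its size factors (-0.0187), with all biotypes (-0.00722), on centred TPM (-0.0125) and without replicate 1 of NEG (-0.0319) or of POS (-0.0209), with a range of -0.0319 to 0.029. *MCM5* turned in the line difference in low serum without replicate 1 of MDA-MB-231 POS (-0.00277; range -0.00277 to 0.0688). For the difference between serum conditions in MDA-MB-436, *MCM2* turned without replicate 1 of POS in low serum (0.0052) or of NEG (0.0168) or POS (0.0406) in standard serum, with a range of -0.0989 to 0.0406, and *MCM6* without replicate 2 of NEG (-0.00631) or POS (-0.0575) in low serum, with a range of -0.0575 to 0.0797.

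The labels number the replicates 1 and 2 in each group, but deviations of same-numbered libraries correlated at -0.097 to 0.0195 in low and -0.0238 to 0.148 in standard serum, so the numbers were not taken as pairs. With the replicate number as a block, 15 members were higher in MDA-MB-436 in standard serum and 17 lower for its line difference, and the other counts of members were those reported. With 2 libraries per group the spread is estimated over all groups of a serum condition, and *E2F2* at 0.596 to 1.22 CPM in MDA-MB-231 in standard serum has the least depth.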

Other observations

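Genes at the entry to S phase that are not among the 38 members also separated the sublines. *CCND2*, cyclin D2, went from 31.7 and 34.1 CPM in NEG to 115 and 120.1 CPM in POS of MDA-MB-231 in low serum (log2 fold change 1.84 ± 0.06, edgeR adjusted p = 4.49e-26) and from 4.76 and 5.15 to 67.6 and 75.1 CPM in standard serum (3.85 ± 0.10). In MDA-MB-436 it was lower in POS, with 100.3 and 106 against 25.9 and 25.2 CPM in low serum (-2.01 ± 0.06) and 54.5 and 54.4 against 34.7 and 33.2 CPM in standard serum (-0.68 ± 0.08). The direction was thus opposite between the lines, by 3.85 ± 0.09 and 4.53 ± 0.13 in the test of the difference. *CDK6*, a cyclin D partner kinase, was higher in MDA-MB-436 POS by 1.55 ± 0.07 and 1.98 ± 0.11 and did not pass in MDA-MB-231 (-0.02 and -0.18).

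*SAMHD1*, which degrades dNTPs and so opposes the nucleotide genes, was higher in MDA-MB-436 POS in low serum (49.0 and 47.9 to 68.0 and 64.2 CPM, 0.45 ± 0.06) and lower in standard serum (43.4 and 44.0 to 18.6 and 17.0 CPM, -1.30 ± 0.08), a difference of -1.75 ± 0.11 (adjusted p = 5.27e-11). It was the 1 gene among 49 other replication genes that passed as lower in standard than in low serum in that line, where 16 passed as higher. *DNA2*, a nuclease and helicase of lagging-strand processing, was lower in MDA-MB-436 POS in both conditions (-1.09 ± 0.07 and -1.03 ± 0.11). Between the NEG sublines, *CCNE1*, cyclin E1, stood at 3.85 and 2.95 CPM in MDA-MB-231 against 29.9 and 28.3 CPM in MDA-MB-436 in low serum, and *E2F7*, a repressor E2F, went the other way, at 242 and 226 against 45.4 and 43.7 CPM.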
